A study of Dendrobaena veneta with 18 samples.

Results

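The cerebral ganglion of earthworms (Dendrobaena veneta) kept for 28 days in soil with 0.6 mg/kg of carbamazepine, called the low dose, was compared with the cerebral ganglion of control worms. Low dose and control ganglia had 3 libraries each, and both groups were adults held in the dark in topsoil spiked with methanol that was left to evaporate. The methanol is common to both groups. Every assembled gene, called a feature, with 10 or more counts in at least 3 of these 6 libraries was taken, which left 42828 of 243619 features. The series also holds ganglia of worms at 10 mg/kg, called the high dose, with 3 libraries, and gut of all 3 groups, and 6 of its 18 samples form the comparison. The labels do not say whether a library is a single worm or a pool, so every p-value reflects the spread among libraries, which may be technical.

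The earthworm's brain is a bilobed ganglion that lies over the pharynx and receives sensory nerves from the front segments. Carbamazepine is an anticonvulsant that holds voltage-gated sodium channels in their inactivated state, and as a pollutant it reaches soil with sewage sludge and reclaimed water. The transcripts were assembled from the reads themselves, so a feature is a predicted gene without a name. The files pair no feature with a gene name, a function or a sequence, and features are given by the identifier of the assembly without its TRINITY prefix.

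The 6 libraries held 12536754 to 16359630 counts, and the features tested took 94.0% to 98.3% of each. No gene markers of nervous tissue could be looked up. In their place stood 316 features restricted to the ganglion in high dose worms, defined as at least 20 CPM (counts scaled to a common library total) in every high dose ganglion and at least 20 times the highest high dose gut. They took 3.78% to 14.9% of the counts in the 6 libraries and at most 0.0833% in any gut library. Low dose and control ganglia lay on opposite sides of the first principal component, which carried 41.3% of the variance. Correlations of log2 CPM across features were 0.720 to 0.785 between low dose libraries, 0.710 to 0.776 between control libraries and 0.547 to 0.707 between the groups. Control 2 lay nearest to the low dose libraries on that component. In every pair within a group, between 705 and 1443 features had 50 or more counts in 1 library and 0 in the other, against 1098 to 2771 in pairs between the groups.

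**Figure D1:**
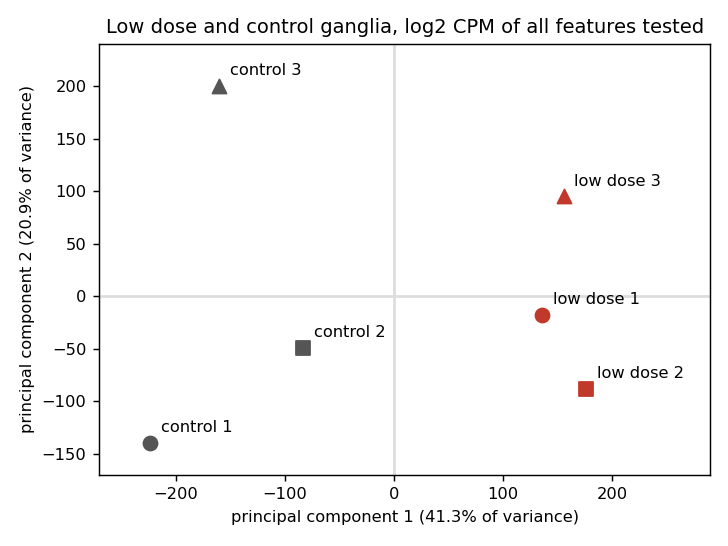
Positions of the 3 low dose (red) and 3 control (grey) ganglion libraries on the first 2 principal components of log2 CPM over the 42828 features tested, axes in component units. The first component (41.3% of variance) separates the groups, and the second (20.9%) separates control 3 from control 1.

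In low dose ganglia 1 feature, DN105851_c7_g1, rose, and no feature fell past the adjusted threshold of 0.05. That is 0.00233% of the features tested with edgeR's quasi-likelihood test on all 9 ganglion libraries. Without the adjustment, more features were higher than lower at the low dose. An unadjusted p under 0.05 was found for 4366 features higher (10.2%) and 2837 lower (6.62%), 7203 in all (16.8%), where 5% of the features tested is 2141.4. The groups did not overlap for 9468 features (22.1%), 5601 of them higher in every low dose library than in any control library (13.1%) and 3867 lower (9.03%). A random order of 3 against 3 libraries would leave a share of 0.1 without overlap, both directions together. The median log2 fold over all features was -0.03, and 8363 features had a fitted fold of 2 or more upward and 7494 downward.

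The number of calls differed between tools and between the libraries fitted together. The biological coefficient of variation was 72.5% and the median standard error (SE) of a log2 fold was 0.73. With 42828 features tested, a single call needed a p of about 1.17e-06. DESeq2 called 3697 of the same features (8.63%), 2754 higher (6.43%) and 943 lower (2.2%). When edgeR was fitted to the low dose and control ganglia alone it called 0, and when gut libraries were added it called 1134, of which 856 were higher and 278 lower. Without low dose 1, 2 or 3 it was 1, 4 and 2, and without control 1, 2 or 3 it was 3, 0 and 0. In each of 17 alternative settings, more features were higher than lower at an unadjusted p under 0.05. The settings draw on the same libraries, so they are not independent of each other. Without control 3 the gap was narrower than in the main fit, with 4026 higher and 3542 lower.

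**Figure D2:**
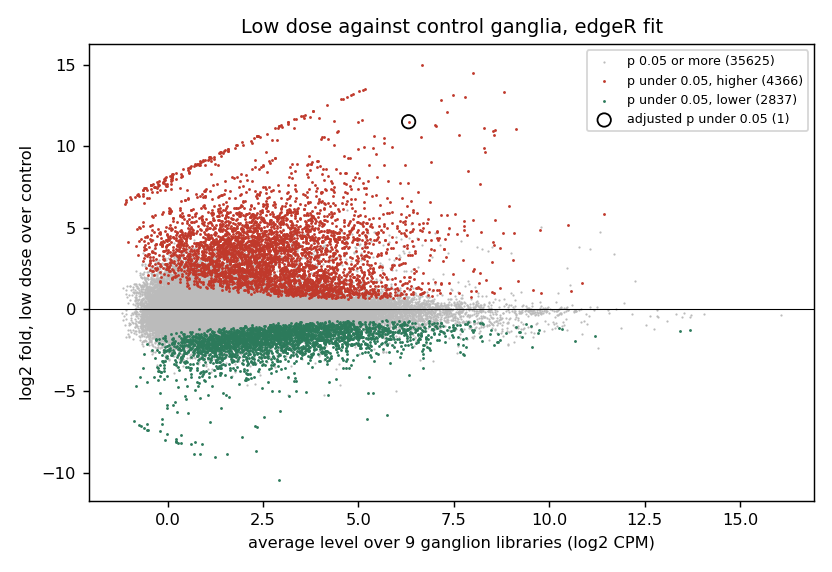
Log2 fold of low dose over control ganglia (vertical) against the average level over the 9 ganglion libraries in log2 CPM (horizontal), 1 point per feature. Red points are the 4366 features higher and green points the 2837 lower at an unadjusted p under 0.05, and the ring marks the single feature with an adjusted p under 0.05.

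DN105851_c7_g1 had 6474, 1561 and 2298 counts in the low dose ganglia, against 0, 2 and 1 in the control ganglia. It averaged 238 ± 134 CPM in low dose ganglia and 0.0743 ± 0.0723 CPM in control ganglia (SD, n = 3 each). All low dose libraries were far above all controls, and the lowest of them was still over 100 CPM. The log2 fold was 11.50 (SE 0.89, adjusted p = 0.0130, edgeR). The ratio of the summed counts, scaled to library size, was 3500, with a 95% exact (Clopper-Pearson) interval of 1200 to 17000 that covers counting error only. The call held in 12 of 16 alternative settings. It was lost without control 2 (log2 fold 12.32, adjusted p = 0.0889) and without control 3 (log2 fold 11.55, adjusted p = 0.115). It was also lost with only the 6 libraries fitted (adjusted p = 0.143) and with the replicate number as a block (adjusted p = 0.104, edgeR throughout).

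In high dose ganglia DN105851_c7_g1 had 10, 9 and 11 counts, so the 3 high dose libraries lay together, just above the controls and far below the low dose. The log2 fold of low dose over high dose was 8.27 (SE 0.75, adjusted p = 0.0544, edgeR), which missed the threshold. In gut it had 1 count in high dose 1 and 0 in the other 7 libraries. The feature's length, as the deposited counts and FPKM (fragments scaled to feature length and library size) imply it, was 641 bases.

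The assembly holds 9 features in the same read cluster (DN105851), and 4 of them had enough counts to be tested. DN105851_c9_g3 had 4188, 1931 and 1794 counts in low dose ganglia, against 0, 590 and 44 in controls (adjusted p = 0.308, edgeR). DN105851_c4_g1 had 846, 118 and 3640 counts in low dose ganglia, against 0, 103 and 9 in controls (log2 fold 5.57, adjusted p = 0.242, edgeR). Both were at 0 in control 1 and in every gut library, and reached over 100 counts in control 2. The fourth, DN105851_c3_g1, had 3 to 11 counts in each of the 6 libraries. These 3 features are described because they share the cluster, and none passed the test.

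DN79348_c3_g2 had the next smallest p among features higher at the low dose, and it did not pass edgeR's adjusted test. It had 493, 1776 and 640 counts in low dose ganglia, against 4, 1 and 4 in controls, so the groups were far apart. Its log2 fold was 8.36 (SE 0.92, adjusted p = 0.120, edgeR), and the scaled ratio of summed counts was 328 (95% exact interval 173 to 718). High dose ganglia had 0, 0 and 1 counts, at or below the lowest control. The log2 fold of low dose over high dose was 11.09 (SE 1.09, adjusted p = 0.0544, edgeR), which missed the threshold. The 8 gut libraries had 0 to 15 counts, the highest in control gut. With the libraries of both tissues in 1 fit the adjusted p was 0.00647 by edgeR's test, and in the same fit the low dose effect in ganglion differed from that in gut (log2 difference 11.30, SE 1.39, adjusted p = 0.0345, edgeR). That difference between tissues did not pass without low dose 2, nor without control 2. DN79348_c3_g2 was called in 5 of 16 alternative settings, with an adjusted p of 1.76e-16 by DESeq2 and 0.0125 by limma on log2(FPKM + 1). Over the 16 settings its adjusted p ran up to 0.291, as did those of DN103813_c2_g2 and DN89454_c7_g1.

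Among features lower at the low dose, the smallest p belonged to DN103813_c2_g2, which did not pass edgeR's adjusted test. It had 895, 543 and 591 counts in low dose ganglia, against 6272, 3669 and 4696 in controls. Low dose ganglia stood at 49.5 ± 6.58 CPM and control ganglia at 352 ± 79.6 CPM (SD, n = 3 each), with a narrow spread in each group and no overlap. The log2 fold was -2.83 (SE 0.32, adjusted p = 0.120, edgeR). High dose ganglia had 3240, 4022 and 2963 counts, all above every low dose library. The log2 fold of low dose over high dose was -2.37 (SE 0.32, adjusted p = 0.309, edgeR), which did not pass. Gut libraries had 1 to 133 counts, fewer than any ganglion library. DN103813_c2_g2 was called in 4 of 16 alternative settings, with an adjusted p of 2.67e-13 by DESeq2 and 0.0125 by limma on log2(FPKM + 1).

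DN89454_c7_g1 had 0 counts in all 3 low dose ganglia, against 221, 86 and 227 in controls, a level at least 57.1-fold lower when the low dose is set at a floor of 3 counts per library. Its adjusted p was 0.120 by edgeR's quasi-likelihood test, and its fitted log2 fold of -10.46 depends on the prior count. High dose ganglia had 70, 245 and 67 counts, and low dose against high dose did not pass (adjusted p = 0.309, edgeR). Low dose guts also had 0 counts in all 3 libraries, against 379 and 230 in control guts, and high dose guts had 282, 179 and 330. The feature was at 0 in all 6 low dose libraries of both tissues and at 67 counts or more in the other 11 libraries. Low dose guts 1 and 3 were nearly alike in their counts, as described below, so these 6 do not count as 6 independent libraries. The labels do not say whether ganglion and gut of 1 number come from the same worm. DN89454_c7_g1 was called in 5 of 16 alternative settings, with an adjusted p of 3.07e-09 by DESeq2 and 0.0476 by limma on log2(FPKM + 1).

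**Figure D3:**
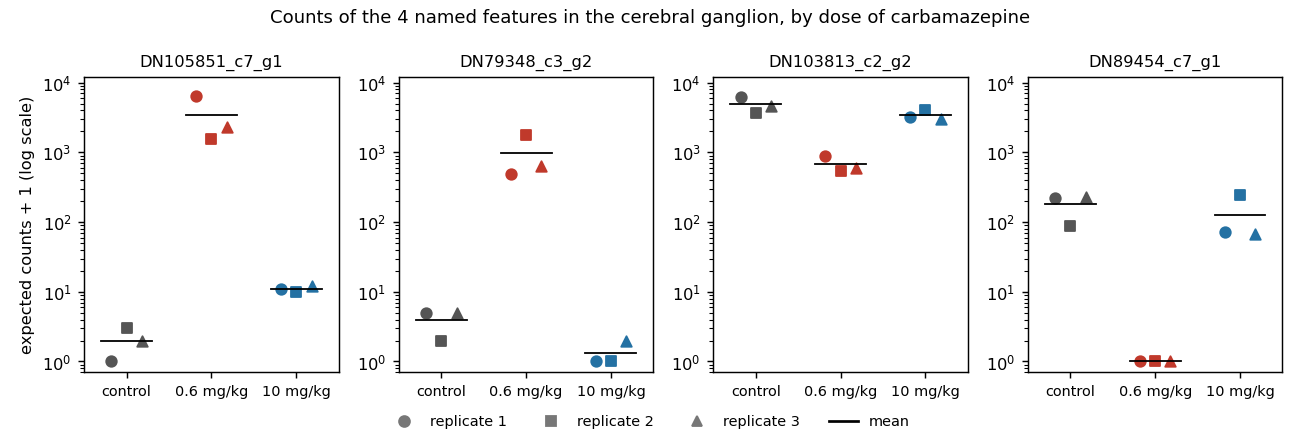
Expected counts plus 1 on a log axis for the 4 named features in the 9 ganglion libraries, by dose of carbamazepine in soil. Each point is a library, its shape is the replicate number and the line is the mean. DN105851_c7_g1 and DN79348_c3_g2 are high at 0.6 mg/kg alone, DN103813_c2_g2 is lowest there, and DN89454_c7_g1 is at 0 in all 3 libraries at that dose. None of the 4 passed edgeR's adjusted test of low dose against high dose.

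Wide gaps between the groups were more often upward than downward. In 1328 features (3.10%) every low dose library was at least 4-fold above every control library, and in 103 (0.240%) at least 4-fold below. These 2 sets were chosen on the values of the comparison and are described without a test. The 1328 features came from 1246 components of the assembly, and had medians of 163, 128.5 and 106 counts in the low dose libraries against 0, 7 and 1 in the controls. They took 4.92%, 9.09% and 6.29% of the counts in low dose ganglia, against 0.0451%, 0.437% and 0.111% in control ganglia. Control 2 was the highest control for 863 of them, and control 1 had 0 counts for 776.

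High dose ganglia, which took no part in choosing these features, differed among themselves. Of the 1328, high dose 2 was at or above the lowest low dose library for 335, high dose 3 for 127 and high dose 1 for 66. At or below the highest control were 200 in high dose 2, 315 in high dose 3 and 1037 in high dose 1. High dose and low dose were each set against the same controls here. In gut, 683 of the 1328 had fewer than 10 counts in each of the 8 libraries, and the set took 0.344% to 0.929% of the counts. Of the 103 features on the lower side, 52 were under 10 counts in all gut libraries, and high dose 1, 2 and 3 lay at or above the lowest control for 27, 34 and 40 of them.

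Presence and absence showed the same imbalance. In 168 features (0.392%) all controls had 0 counts and all low dose libraries 10 or more, and in 27 (0.0630%) the reverse held. The 168 features summed to 25584, 52799 and 12439 counts in low dose 1, 2 and 3. In high dose ganglia they summed to 1122, 5440 and 1981 counts, and 22 of them were at 0 in all 3 high dose libraries. In gut they summed to 3530 to 6910 counts, and 59 were at 0 in every gut library. The median of their low dose means was 58.2 counts, and 54 of them averaged 100 counts or more. The 27 features of the other set summed to 1116, 781 and 1175 counts in controls. Of the 27, 23 had 0 counts in all low dose guts, of which 1 and 3 were nearly alike. High dose guts 1, 2 and 3 had 0 counts for 18, 18 and 17 of the 27, and control guts 2 and 3 for 5 and 8. Among all 42828 features, 4408 to 6214 were at 0 in a given gut library. The number at 0 in every control depended most on control 2, since it was 744 without that library.

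Control 1 lacked a set of features that were abundant in all low dose libraries. There were 157 features with at least 20 CPM in every low dose ganglion and 0 counts in control 1, chosen after the values were seen. They took 3.11%, 3.07% and 8.22% of the counts in low dose ganglia, against 0%, 0.644% and 0.0759% in control 1, 2 and 3. In high dose 1, 2 and 3 they took 0.0279%, 2.38% and 0.773%. In gut they took at most 0.0299%. High dose 1 lay within the control range, and high dose 2 and 3 lay between the highest control and the lowest low dose library.

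DN105851_c7_g1 is one of these 157 features, and without control 1 its log2 fold was 10.93 (adjusted p = 0.0193, edgeR). High dose 2 had 2.38% of its counts in the set but 9 counts of DN105851_c7_g1. Of the 157, 105 had an unadjusted p under 0.05 and 1 was called, against 16.8% and 0.00233% of all features, and the comparison itself chose them. The same rule applied to other libraries gave fewer features. In control 2 and control 3, 5 and 30 features had 0 counts with at least 20 CPM in every low dose library. With at least 20 CPM in every control library, 0, 1 and 2 features were at 0 in low dose 1, 2 and 3. In bulk tissue, fewer cells of a type and less RNA per cell cannot be told apart.

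**Figure D4:**
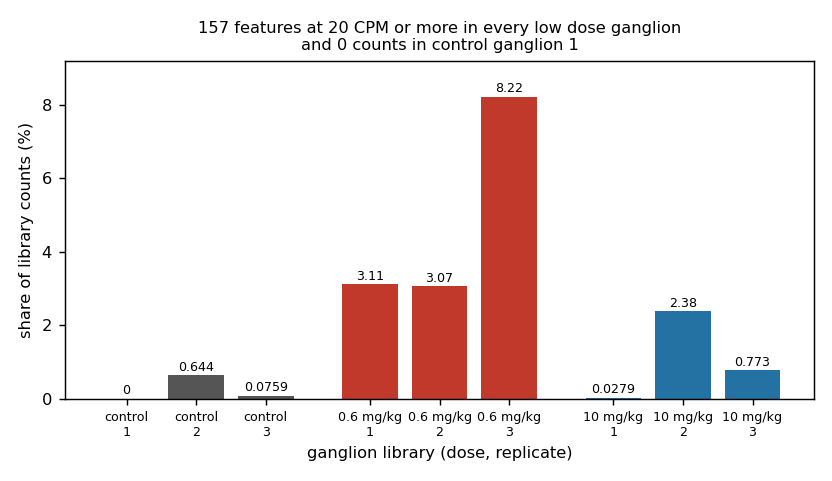
Share of each ganglion library's counts (bars, in percent, from 0) taken by the 157 features with at least 20 CPM in every low dose ganglion and 0 counts in control ganglion 1, by dose and replicate. The 3 low dose libraries, which chose the set together with control 1, hold 3.07% to 8.22%, and the high dose libraries run from 0.0279% to 2.38%.

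Most features restricted to the ganglion had a negative log2 fold. Of the 316 described above, 285 had a negative and 31 a positive log2 fold, with a median of -0.97 against -0.03 for all features. At an unadjusted p under 0.05, 61 were lower and 2 higher, 19.9% together against 16.8% of all features, and none was called. They took 6.71% ± 2.73 of the counts in low dose ganglia and 9.36% ± 5.57 in control ganglia (SD, n = 3 each), so the groups overlapped. The controls held 14.9%, 9.38% and 3.78%, and without control 1 the low dose mean was higher, by 0.128 percentage points.

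Features restricted to gut, defined the same way, took a small share of every ganglion library. Of 611 such features 109 passed the minimum count in these ganglia, which a feature can do through the low dose libraries alone, so the folds of those 109 are not summarised. All 611 took 0.0526%, 0.240% and 0.0808% of the counts in low dose 1, 2 and 3, against 0.0296%, 0.0446% and 0.0392% in control 1, 2 and 3. All low dose libraries stood above all controls, low dose 2 highest, and what part gut RNA has in the other differences was not tested.

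The share of features with an unadjusted p under 0.05 was larger for features of higher level, up to 100 CPM. It was 6.36% below 1 CPM, 9.44% from 1 to 2 CPM, 16.3% from 2 to 5 CPM and 21.9% from 5 to 20 CPM. At 20 to 100 CPM it was 24.6%, and at 100 CPM or more it was 21.4%. The median SE of the log2 fold was 0.43 and 0.44 in the top 2 classes, against 1.13 below 1 CPM, so a low feature needed a larger fold to reach the same p. Higher features outnumbered lower ones in all 6 classes, by 799 to 496 at 20 to 100 CPM and by 135 to 103 at 100 CPM or more. By implied length the share was 11.8% under 500 bases and 20.6% from 2000 up to 4000 bases.

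**Figure D5:**
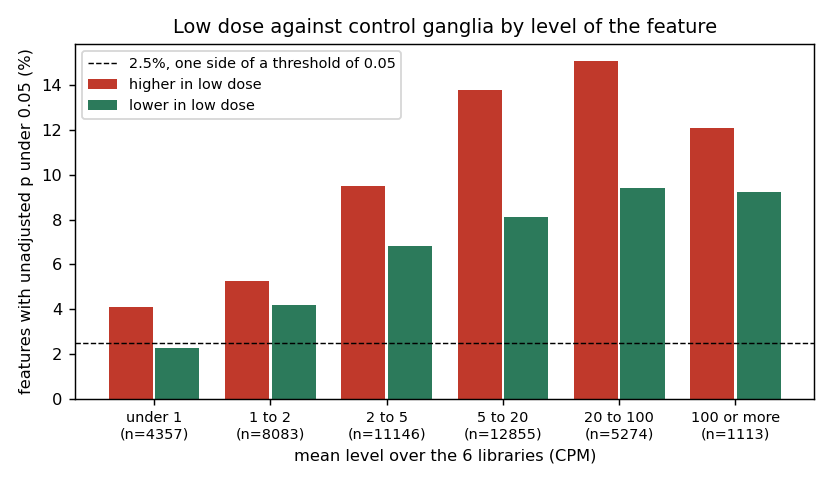
Percent of features with an unadjusted p under 0.05 in the edgeR test of low dose against control ganglia, higher (red) and lower (green), by mean level over the 6 libraries in CPM. The bars rise to 15.1% higher and 9.40% lower at 20 to 100 CPM, and the dashed line marks the share each side would have if p-values were uniform.

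None of the most abundant features was called, and some were missing from a single library. The feature of highest mean FPKM, DN76330_c0_g1, had 81782, 43545 and 37627 FPKM in low dose ganglia, against 41383, 72641 and 89983 in control ganglia. The groups overlapped, and the fitted log2 difference was -0.38 (SE 0.61, adjusted p = 0.820, edgeR). The second, DN49411_c0_g1, had 74878, 19179 and 55482 FPKM in low dose ganglia, against 0, 15495 and 339 in control ganglia (log2 fold 3.46, SE 1.98, adjusted p = 0.429, edgeR). Its implied length is 5 bases, so its FPKM overstates its level, and in CPM it stood at 302 ± 166 in low dose and 27.4 ± 45.6 in control ganglia (SD, n = 3 each). It is among the 157 features at 0 in control 1.

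Over the 20 features of highest mean FPKM, 1 had an unadjusted p under 0.05 and none was called, against 16.8% and 0.00233% of all features. Of the 20, 15 had a negative log2 fold. For 7 the highest of the 6 libraries was within 2-fold of the lowest, while 4 had 0 counts in control 1. An implied length under 100 bases was found for 6 of the 20. Together they took 17.8%, 12.1% and 14.1% of the counts in low dose ganglia, against 15.2%, 19.8% and 21.0% in controls.

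Features with little spread inside each group were counted separately, on the values themselves and without a test. Of 19242 features at 5 CPM or more, 5302 stayed within 2-fold among the low dose libraries and within 2-fold among the controls. In 74 of these 5302 every low dose library was at least 2-fold above every control, and in 53 at least 2-fold below. Over all features tested, 3.10% were at least 4-fold above and 0.240% at least 4-fold below, and the share at 2-fold was not counted. Features of 1 component, the assembly's unit above the gene, could be compared with each other. Of 7235 components with 2 or more features tested, 356 had at least 2 features whose groups did not overlap upward and none downward. The reverse held for 184, and 114 had features of both directions. Of all features, 13.1% did not overlap upward and 9.03% downward, but these shares count features and give no background for components.

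The low dose effect was also set against that in gut, with the gut libraries low dose 1 and 3 averaged to 1 sample. Their counts differed by 2.32 times the counting noise (chi-square over its degrees of freedom), against 14.5 to 105 times in every other pair of libraries of a group. In 4 features the effect differed between the tissues by edgeR's quasi-likelihood test, with an adjusted p under 0.05. An unadjusted p under 0.05 was found for 4280 of the 42828 features, where 5% is 2141.4, and the ganglion effect was the more positive in 2231 of them. For DN105851_c7_g1 the difference between tissues could not be estimated, since control and low dose guts were all at 0 counts. Between the doses in the ganglion, edgeR called 0 of the 42828 features with low dose against high dose, and DESeq2 called 1275. By edgeR 4781 had an unadjusted p under 0.05, against 7203 for low dose against control and 2141.4 at 5%.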

How the data were processed

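Poly(A)-selected libraries of ganglion and gut were sequenced on an Illumina instrument and assembled de novo, per the labels. CASAVA and DESeq2 appear in the submitters' processing notes, without versions, and the sources used here name no counting program. Expected counts, meaning estimated counts per assembled gene with no scaling, were deposited by the authors. FPKM values, scaled to feature length and library size, were deposited beside them. 1 of the 18 samples, control gut 1, has no column and was not analysed here.

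Counts were rounded and scaled with TMM factors. The main test was edgeR's two-sided quasi-likelihood F test (edgeR 4.0.16, limma 3.58.1, R 4.3.3) on 9 ganglion libraries, 1 coefficient per group and 6 residual degrees of freedom, with Benjamini-Hochberg adjustment over 42828 features. DESeq2 1.42.0 and limma on log2(FPKM + pseudocount) were alternatives, with other filters, scalings, a replicate block and libraries left out in turn. The scripts were tested on simulated data. CPM values are scaled to TMM-adjusted library totals, shares are of unscaled totals, and SE is the log2 fold over the square root of F. An exact permutation of 3 against 3 libraries cannot go below p = 0.1, so groups that do not overlap are counted without a p.

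Features named are the 2 of smallest p in each direction and the 2 of highest mean FPKM, because the files give no names. Members, sets and tests were chosen with earlier results of these data known.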

Additional observations from a re-analysis of the deposited data

Results flagged for a closer look

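In 4 features the low dose effect in ganglion differed from that in gut by the interaction test (edgeR's quasi-likelihood test, adjusted p under 0.05, 16 samples with gut low dose 1 and 3 averaged). DN79348_c3_g2 is described above, with a log2 difference of 11.30. The other 3 were chosen after their values were seen. Without low dose 2 the interaction test passed 1 feature, and without control 2 also 1, each with a negative difference. The positive differences of DN79348_c3_g2 and DN86038_c0_g2 thus lost their call in both settings.

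DN88869_c4_g1 differed by -4.39 on the log2 scale (SE 0.45, adjusted p = 0.00737, edgeR). It had 114, 96 and 113 counts in low dose ganglia, against 80, 77 and 82 in control ganglia. In gut it had 1782, 1686 and 1807 counts at the low dose, against 51 and 38 in controls, with a fitted log2 fold of 0.46 in ganglion and 4.85 in gut.

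DN86038_c0_g2 differed by 13.46 (SE 1.55, adjusted p = 0.0349, edgeR). It had 36, 40 and 28 counts in low dose ganglia, against 0, 7 and 6 in control ganglia. In gut it had 10, 17 and 9 counts at the low dose, against 10300 and 18027 in controls, and 0 in all 3 high dose guts. The fitted log2 fold was 2.95 in ganglion and -10.52 in gut.

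DN100155_c1_g1 differed by -6.87 (SE 0.92, adjusted p = 0.0438, edgeR). It had 121, 41 and 48 counts in low dose ganglia, against 347, 223 and 171 in control ganglia. In gut the counts were 63, 63 and 80 at the low dose, against 3 and 0 in controls, with a fitted log2 fold of -1.86 in ganglion and 5.01 in gut.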

How the results depend on the processing

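With no filter, 7273 of 137752 features tested were called at the low dose, against 1 of 42828 as reported. The number called was 0 with only the 6 libraries, 3697 with DESeq2 and 1134 with all libraries of both tissues. By limma it was 318 on FPKM plus 1 and 87 on FPKM plus 0.1. Without 1 library the number by edgeR ran from 0 to 4. The cause was not tested. RLE factors, library totals alone, edgeR's own filter and counts summed over components gave 1. With the replicate number as a block it was 0, and the adjusted p of DN105851_c7_g1 was 0.104 (edgeR). Libraries of equal number correlated at 0.0178, -0.0169 and 0.0895 in their deviations from the group means. Low dose 2 correlated best with control 1 (0.109). The labels do not say what the number stands for, and whether libraries of equal number share a batch was not tested.

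Features with an unadjusted p under 0.05 numbered 17105 of 137752 with no filter, and 5437 to 7568 of 42828 without 1 library. DN105851_c7_g1 kept its call in 12 of 16 alternatives, and all 4 named features kept their direction in all 16. Groups did not overlap for 12701 to 16530 features without 1 library. A random order of 5 libraries leaves a larger share without overlap, whichever library is left out. These numbers are therefore not comparable with the 9468 found with all libraries of the comparison. The number was highest without control 3 (8379 higher, 8151 lower), and next highest without low dose 3, at 13534 (7862 higher, 5672 lower). The cause of the higher number without control 3 was not tested. With a minimum of 20 counts, 65 features were at 0 in every control and 9 at 0 in every low dose library. Without 1 control, 274 to 744 features were at 0 in the remaining controls. Without 1 low dose library, 52 to 71 were at 0 in the remaining low dose libraries. The minimum count for testing fixed the counts in the reverse cases. A feature at 0 in every control was tested only with 10 or more counts in every low dose library, and likewise with the groups exchanged. The number thus stayed at 168 without any low dose library and at 27 without any control, which tests nothing. The set at 0 in control 1 held 275 features at 10 CPM and 60 at 50 CPM.

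The effect differed between tissues for 52 features with gut low dose 1 and 3 separate, 989 by DESeq2, and 1 to 32 without 1 ganglion library (32 without low dose 3). Low dose against high dose gave 1275 features by DESeq2 and 0 to 2 by edgeR without 1 library, with 3036 (without high dose 1) to 4971 at an unadjusted p under 0.05. The ganglion-restricted share, low dose minus control, was -2.65 percentage points and ran from -5.44 to 0.128 without 1 library. The size of a change below 1 CPM was limited by depth.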

Other observations

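A second group of features separated the low dose libraries from one another. Over all features of the assembly, 295 had 0 counts in all controls, 50 or more in low dose 1 and in low dose 2, and in low dose 3 less than 0.1 of the count in low dose 1. They summed to 51798, 154593 and 898 counts in low dose 1, 2 and 3. The ratio of low dose 2 over low dose 1 had a median of 3.11 and quartiles of 2.35 and 4.08. In high dose ganglia they summed to 1535, 1957 and 808 counts, and 104 of them had 0 counts in all gut libraries. The features were chosen after their values were seen, and 19 of them are among the 42828 tested, since the others miss the minimum count in low dose 3.

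Single libraries also carried features of their own. Features with 100 or more counts in 1 of the 6 libraries and 0 in the other 5 numbered 4, 40 and 52 in low dose 1, 2 and 3, against 15, 10 and 35 in control 1, 2 and 3. Features at 0 in 1 library with 50 or more counts in each of the other 5 numbered 13, 1 and 3 in low dose 1, 2 and 3, against 38, 8 and 19 in control 1, 2 and 3.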
